A study of Rattus norvegicus with 30 samples.

Results

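The genes described here are those of the proteasome, the protease that degrades ubiquitin-tagged proteins in the cytosol and nucleus. A gene was taken when a probe set of the array carried a single gene symbol made of Psma, Psmb, Psmc, Psmd, Psme, Psmf or Psmg and a number, and where several did, the one with the highest average level stood for the gene. This gave 46 of the 14217 genes with a probe set of 1 symbol. Of these, 44 encode parts or helpers of the proteasome, with 7 genes of the outer alpha ring, 6 of the inner beta ring, 3 catalytic subunits of the immunoproteasome, 17 of the 19S regulatory particle, 7 assembly chaperones, 3 activators and the inhibitor *Psmf1*. The remaining 2, *Psmc3ip* and *Psme3ip1*, are named for proteins that bind a subunit and share only the start of the symbol, and they stay in every count over 46. *Psmb6* and *Psme3* were measured only by probe sets that carry several symbols and are not among the 46, and *Psma8* and *Psmb11* were not analysed here.

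The samples were kidneys of male pups of the stroke-prone spontaneously hypertensive rat (SHRSP), a strain that develops severe hypertension. Dams were given a control diet with 20% casein (CN) or a low-protein diet with 9% casein (LP) in pregnancy. Once the pups were born, every dam was moved to a commercial control diet, and weaned pups were given a control diet. Pups were culled at 5 days (D5), 10 days (D10) or 4 weeks (D28), the last after weaning in the fourth week, which gave the 6 groups D5-CN, D5-LP, D10-CN, D10-LP, D28-CN and D28-LP with 5 GeneChip arrays each. The methods speak of pooled RNA of a group while the labels call the arrays biological replicates, and the litters are not given, so the p-values reflect spread among arrays that may be only technical and may treat pups of the same dam as independent. Values are log2 expression values as the authors deposited them, so that a difference of 1 is a 2-fold difference. Because RNA was extracted from kidney tissue in bulk, fewer cells of a type and less RNA per cell cannot be told apart.

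The arrays of an age appear to have been normalized together and apart from the other ages. Between the CN and LP arrays of the same age, 1837 (D5), 1850 (D10) and 1945 (D28) values were identical to 8 decimals, whereas groups of different ages shared 13 to 35. Levels at different ages are therefore set side by side with their spread and were not tested, and a difference between ages holds any difference of the normalization too. The median over all 31042 probe sets differed by −0.03 between D28 and D5 in the CN arrays and by −0.04 in the LP arrays, while 16 hybridization controls, bacterial and phage RNAs added in fixed amounts, were 0.43 higher at D28 than at D5 in the median. The 10 proximal tubule markers averaged between 11.76 and 12.27 over the groups, and the 10 markers of skeletal muscle and adrenal gland between 5.08 and 5.32. Other marker lists differed more between the ages, and their part in the age differences was not tested. From D5-CN to D28-CN the mean went from 9.37 to 10.44 for 4 red blood cell markers, from 9.33 to 10.15 for 7 collecting duct markers and from 9.68 to 9.02 for 5 podocyte markers, and in LP from 9.62 to 10.51, from 9.47 to 10.38 and from 9.78 to 9.15. For 3 nephron progenitor markers the mean went from 7.54 to 7.88 in CN and from 7.47 to 8.08 in LP. The median difference over these 3 genes was 0.07 in CN and −0.27 in LP.

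As background, the 20S core is a barrel of stacked rings in which the alpha subunits gate the entrance and the beta subunits line the chamber. *Psmb5*, *Psmb6* and *Psmb7* encode the beta subunits that cut peptide bonds. In immune cells, and in other cells under interferon gamma, they are replaced by *Psmb8*, *Psmb9* and *Psmb10*, and the resulting immunoproteasome yields peptides suited to presentation on major histocompatibility complex (MHC) class I molecules. The 19S particle caps the barrel, binds ubiquitin chains, removes them and unfolds the substrate. In the kidney, as in other tissues, the constitutive form is the common one and the genes of its subunits are broadly expressed.

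The promoter stretches below are shown for the immunoproteasome catalytic genes and for the constitutive *Psmb5*, while that of the constitutive *Psmb7* is not shown. Each holds the 90 bases before the annotated transcript start and the first 10 after it, from the RefSeq promoter table for build GRCr8, read 5′ to 3′ on the strand of the gene. Capitals mark matches, on either strand, to an interferon-stimulated response element (GAAA, any 2 bases, GAAA), the letters bound by interferon regulatory factors, or to an antioxidant response element (TGACNNNGC), the letters bound by Nrf1 and Nrf2.
Psmb8: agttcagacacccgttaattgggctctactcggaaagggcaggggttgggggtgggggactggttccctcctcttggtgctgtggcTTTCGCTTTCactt
Psmb9: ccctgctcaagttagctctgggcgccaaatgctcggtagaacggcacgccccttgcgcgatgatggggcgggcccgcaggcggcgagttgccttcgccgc
Psmb10: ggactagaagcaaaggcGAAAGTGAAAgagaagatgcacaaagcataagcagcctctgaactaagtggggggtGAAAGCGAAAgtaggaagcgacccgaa
Psmb5: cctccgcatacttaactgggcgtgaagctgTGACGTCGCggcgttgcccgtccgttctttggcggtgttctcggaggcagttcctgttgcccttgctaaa

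The stretches lie at chr20:4657022-4657121 (minus strand), chr20:4668910-4669009 (plus strand), chr19:50743283-50743382 (minus strand) and chr15:32047370-32047469 (minus strand). *Psmb8* and *Psmb9* are neighbours of the peptide transporter genes in the MHC region of chromosome 20, in the order *Tap2*, *Psmb8*, *Tap1*, *Psmb9*, and the other members lie elsewhere. *Psmb10* held 2 matches to the interferon element, which begin 73 and 17 bases before the start, and *Psmb8* held 1 that begins 4 bases before it and runs across it. No match to these letters was found in the 300 bases of *Psmb9*. *Psmb5* held a match to the antioxidant element 60 bases before the start. For *Psmb7* no match to either element is recorded, which can also mean that its promoter was not found. Promoters were found for 42 of the 46 members. Over the 300 bases from 250 before to 50 after the start, 7 of the 42 members (16.7%) held the interferon element, against 3.92% of all 33469 promoters in the table. They were *Psmb8*, *Psmb10*, *Psme2*, *Psma4*, *Psmb3*, *Psmd7* and *Psmg4*. The antioxidant element was held by 7 of 42 members (16.7%) against 12.1% of all promoters. A match describes letters and shows neither a bound site nor a cause.

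Among the catalytic subunits, the immunoproteasome genes *Psmb8* and *Psmb9* had a higher mean at each later age in both diets, whereas the constitutive *Psmb5* and *Psmb7* had a lower one. From D5 to D28 the difference was 1.24 ± 0.08 (SE, n = 5 and 5 arrays) for *Psmb8* and 1.02 ± 0.11 for *Psmb9* in the CN groups, and 1.35 ± 0.08 and 1.13 ± 0.07 in the LP groups, which is 2.36-fold and 2.02-fold in CN and 2.55-fold and 2.19-fold in LP. *Psmb10*, the third immunoproteasome subunit, differed by −0.10 ± 0.04 and −0.03 ± 0.05.

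*Psmb8* encodes the beta5i subunit, which takes the place of *Psmb5*. Its log2 values were 6.69, 6.95, 6.75, 6.92 and 6.82 on the D5-CN arrays and 6.65, 6.82, 6.78, 6.83 and 6.64 on the D5-LP arrays. At D10 they were 7.19, 7.19, 7.29, 7.29 and 7.14 (D10-CN) and 7.07, 7.34, 7.09, 7.08 and 7.20 (D10-LP). At D28 they were 7.85, 8.27, 8.02, 8.13 and 8.07 (D28-CN) and 8.00, 8.07, 8.10, 8.34 and 7.99 (D28-LP). Every D10 array thus lay above every D5 array, and every D28 array above every D10 array, within and across the diets.

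*Psmb9* encodes beta1i, which takes the place of *Psmb6*. It was measured at 7.10, 7.26, 7.03, 7.25 and 7.09 on the D5-CN arrays and at 7.14, 7.06, 7.22, 7.17 and 7.07 on the D5-LP arrays. The D10 values were 7.41, 7.47, 7.54, 7.53 and 7.23 (D10-CN) and 7.25, 7.41, 7.37, 7.37 and 7.53 (D10-LP). The D28 values were 7.96, 8.51, 8.18, 8.11 and 8.04 (D28-CN) and 8.08, 8.35, 8.35, 8.41 and 8.13 (D28-LP). The D28 arrays stood apart from all younger arrays, while 1 D10-CN array, at 7.23, and 1 D10-LP array, at 7.25, lay within the range of the D5-CN arrays.

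*Psmb10* encodes beta2i, which takes the place of *Psmb7*. Its values ran from 8.07 to 8.17 on the D5-CN arrays and from 7.94 to 8.14 on the D28-CN arrays, and from 7.99 to 8.08 (D5-LP) and 7.86 to 8.08 (D28-LP). The ages overlapped in both diets. Its sign was not stable in LP, where quantile normalization of all arrays turned the difference to 0.06 and centring each array on its median to 0.05.

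*Psmb5*, the chymotrypsin-like subunit, had values of 12.07, 12.02, 12.07, 12.17 and 12.12 on the D5-CN arrays and 12.11, 12.02, 12.04, 12.10 and 12.17 on the D5-LP arrays. They were 11.60, 11.46, 11.49, 11.70 and 11.73 at D10 in CN and 11.62, 11.75, 11.68, 11.56 and 11.60 in LP. At D28 they were 11.49, 11.51, 11.53, 11.53 and 11.38 in CN and 11.47, 11.43, 11.47, 11.43 and 11.41 in LP. All D5 arrays lay above all older arrays, and the D10 and D28 arrays overlapped in CN and were separate in LP. *Psmb7*, the trypsin-like subunit, averaged 10.57 ± 0.06 (SD, n = 5 arrays), 10.28 ± 0.15 and 10.03 ± 0.16 in CN and 10.56 ± 0.07, 10.33 ± 0.19 and 10.11 ± 0.16 in LP, in order of age.

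Set against its own counterpart on the same arrays, *Psmb8* gained 1.84 ± 0.09 (SE) on *Psmb5* from D5 to D28 in CN and 2.0 ± 0.09 in LP. *Psmb10* gained 0.45 ± 0.09 on *Psmb7* in CN, without overlap of the ages, and 0.43 ± 0.11 in LP, with overlap. As deposited, the mean of *Psmb10* itself was not higher at D28 than at D5 in either diet. These gains are differences of 2 differences in log2 value. They say nothing of the proportion of the 2 forms, since the levels of different probe sets cannot be set against each other. The counterpart of *Psmb9*, *Psmb6*, had no probe set of its own.

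**Figure D1:**
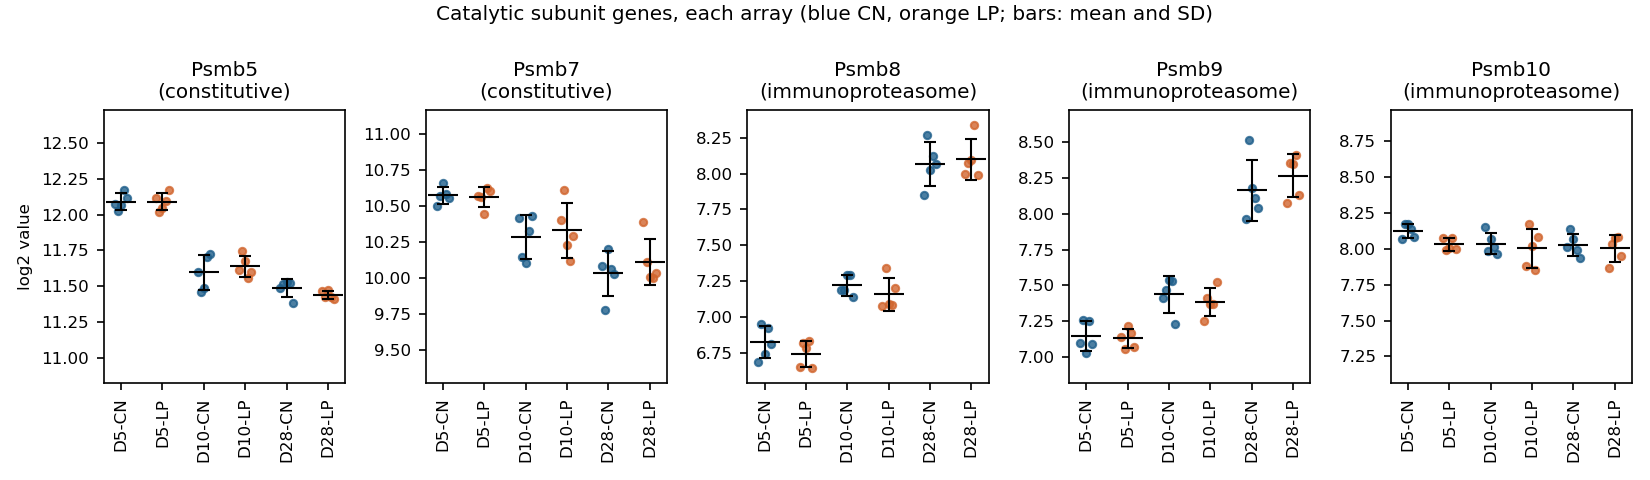
Log2 values of the catalytic subunit genes (vertical axes, each spanning the same range) on each of the 5 arrays of the 6 groups (horizontal axes); points are arrays, blue for CN and orange for LP, and bars are the mean and SD. Psmb8 and Psmb9 were highest on the D28 arrays in both diets, Psmb5 and Psmb7 had their highest means at D5, and Psmb10 lay between 7.85 and 8.17 in every group.

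Most genes that work downstream of the immunoproteasome or are induced with it were also higher at D28. Of 10 MHC class I processing genes, 6 were higher with no overlap between D28-CN and D5-CN, as were 20.7% of all probe sets, and 1 was lower. B2m, the light chain of MHC class I, differed by 1.08, the rat class I gene RT1-CE5 by 0.80 and the peptide transporter gene Tap2 by 0.72, while the chaperone Canx was lower by 0.43. Tap1, which lies between *Psmb8* and *Psmb9*, differed by 0.35 in CN, with overlapping arrays, and by 0.45 in LP, without overlap. Of 18 interferon pathway genes, 16 were higher in D28-CN than in D5-CN without overlap, and none was lower. The antiviral genes Mx2 (4.90), Mx1 (3.48) and Ifit3 (3.03) differed most, and Irf1, the interferon regulatory factor, differed by 1.06. On the MHC class I list, Nlrc5, the MHC class I transactivator, differed by −0.23 with overlap. In LP, 7 of the 10 MHC class I genes and 16 of the 18 interferon genes were higher at D28 (21.3% of all probe sets) and 1 of each list was lower (30.1%). From D5 to D10, *Psmb8* and *Psmb9* were higher by 0.39 and 0.29 in CN, and Tap1 and Tap2 differed by −0.06 and −0.11 with overlap. In that step 3 of the 10 MHC class I genes and 2 of the 18 interferon genes were higher without overlap in CN (7.46% of all probe sets). On the same lists 1 and 0 were lower (19.4%). In LP, 1 and 5 were higher (7.8%) and 1 of each list was lower (20.3%).

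White blood cells carry immunoproteasomes, so their markers were looked at beside these genes. Of 22 leukocyte markers, 6 were higher in D28-CN than in D5-CN without overlap (20.7% of all probe sets) and 2 were lower (29%), so that the share that was higher is near that of all probe sets. The mean of the list was 6.42 to 6.78 per D5-CN array, 6.49 to 6.66 per D10-CN array and 6.92 to 7.12 per D28-CN array. The common leukocyte antigen Ptprc differed by 0.47, with overlapping arrays, the MHC class II chaperone Cd74 by 2.36 and lysozyme, Lyz2, by 1.62, whereas the T cell receptor chain Cd3e was lower by 0.37. From D5-CN to D10-CN, when *Psmb8* was higher by 0.39, 1 marker was higher (7.46% of all probe sets) and 1 lower (19.4%). From D10-CN to D28-CN, when *Psmb8* was higher by 0.85, 10 markers were higher (20.7%) and 1 lower (19.5%), with a median of 0.41. In LP, 6 of the 22 were higher at D28 than at D5 (21.3%) and 0 were lower (30.1%). From D10 to D28 in LP, 9 were higher (20.8%) and 0 lower (21.1%), with a median of 0.48. The part of leukocytes in the values of *Psmb8* and *Psmb9* was not tested.

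Across all 46 members the values were lower at the later age for most genes. From D5 to D28, 35 members were lower without overlap of the 5 and 5 arrays in CN, where 29% of all probe sets were, and 36 were lower in LP, where 30.1% were. The members that were higher without overlap numbered 2 in CN, against 20.7% of all probe sets, and 3 in LP, against 21.3%. They were *Psmb8* and *Psmb9* in both diets and *Psmd10* in LP. The median difference over the members was −0.44 in CN and −0.45 in LP, against −0.03 and −0.04 over all probe sets. In both diets 34 members were lower without overlap, 2 were higher and 6 overlapped, and the other 4 overlapped in 1 diet only. No share of all probe sets is given for these counts over both diets.

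On the deposited scale and with all arrays, the step from D5 to D10 had the larger median. In CN, 35 members were lower at D10 than at D5 without overlap (19.4% of all probe sets) and 1 was higher (7.46%), with a median of −0.32 over members and −0.07 over all probe sets. Quantile normalization of all arrays took this median to −0.17 and the members that were lower to 26, and in LP to −0.18 and 21. For the same step, centring each array on its median left 30 lower in CN and 24 in LP. In LP, as deposited, 30 were lower (20.3%) and 2 higher (7.8%), with medians of −0.30 and −0.08. From D10 to D28, 11 members in CN were lower (19.5%) and 4 higher (20.7%), with medians of −0.12 and 0.02, and 17 in LP were lower (21.1%) and 4 higher (20.8%), with medians of −0.18 and 0.02. Centring each array on its median left 7 lower in CN and 12 in LP, while quantile normalization gave 15 and 24. The shares of all probe sets are for the deposited values, and none is given for the other scalings. From D10 to D28 in CN, as deposited, the share of members that were lower, 11 of 46, is near that of all probe sets. The 12 arrays of poorest RNA quality had a 3′ minus 5′ difference over 0.6. Without them, the medians of both steps were −0.24 and −0.18 in CN and −0.19 and −0.21 in LP. Leaving them out kept only replicates 1 and 2 in D10-LP and in D28-LP, so the order of the LP medians rests on very few arrays. After quantile normalization of all arrays the second step in LP was the larger too (−0.18 and −0.24). There were 9 members that were lower without overlap in both steps and both diets, with all arrays as deposited. No share of all probe sets is given for that count, so it is described only.

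**Figure D2:**
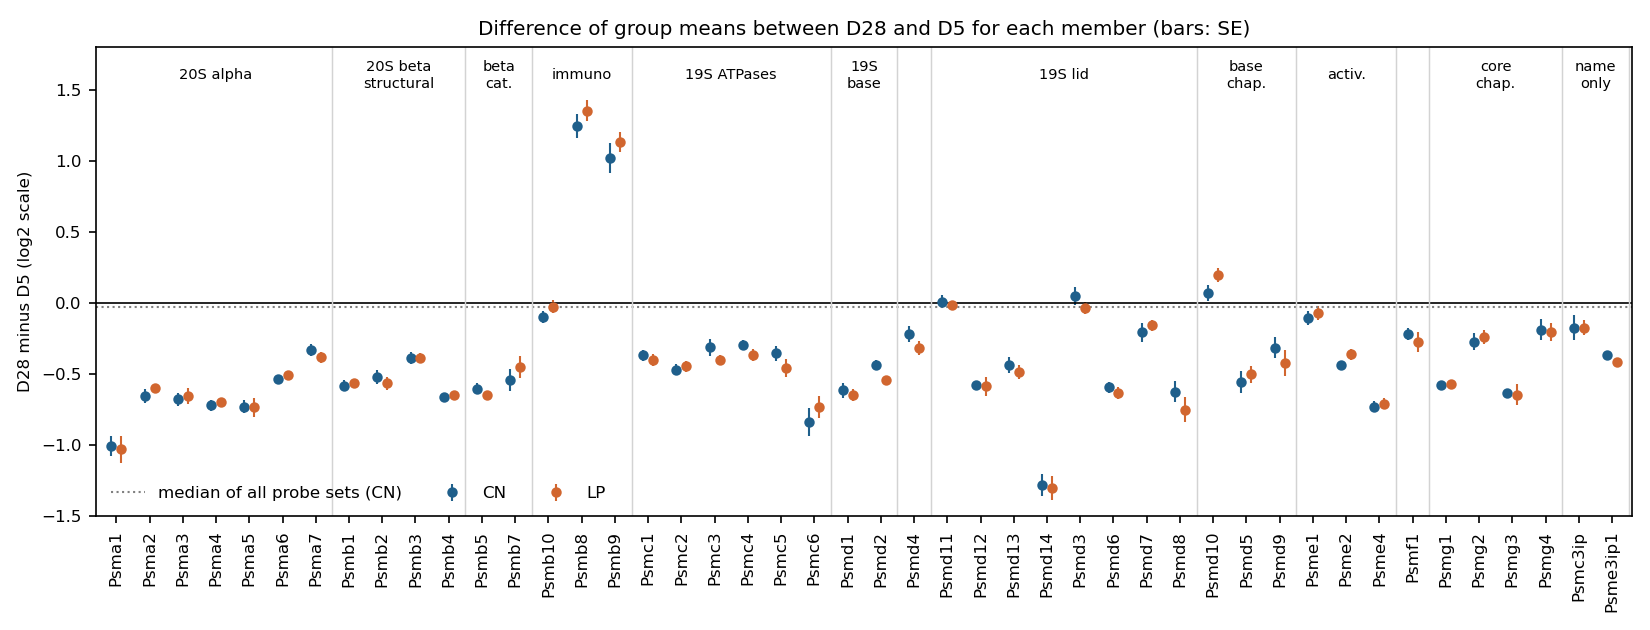
Difference of the group means between D28 and D5 (vertical axis, log2 scale) for each of the 46 members (horizontal axis, grouped by role), blue for CN and orange for LP, with bars of 1 SE; the dotted line is the median of all probe sets in CN. The alpha ring and constitutive beta ring genes lay below 0 throughout, Psmb8 and Psmb9 lay above 1, and the lid subunit Psmd14 lay lowest at −1.28 and −1.30.

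All 7 alpha ring genes were lower at D28 than at D5 without overlap in both diets (29% of all probe sets in CN, 30.1% in LP). Their median was −0.68 in CN and −0.66 in LP. *Psma1*, which encodes alpha6, differed most, by −1.01 ± 0.07 in CN (2.01-fold) and −1.03 ± 0.09 in LP (2.04-fold). Its values were 11.24, 11.19, 11.26, 11.31 and 11.34 on the D5-CN arrays and 10.34, 10.04, 10.42, 10.30 and 10.21 on the D28-CN arrays. They were 11.17, 11.23, 11.20, 11.35 and 11.06 on the D5-LP arrays and 10.37, 10.27, 9.89, 10.20 and 10.13 on the D28-LP arrays. No D28 array reached the lowest D5 array. *Psma7*, alpha4, differed least of the ring, by −0.33 ± 0.04 and −0.38 ± 0.04, and *Psma4* and *Psma5* differed by −0.72 and −0.73 in CN and by −0.70 and −0.74 in LP. *Psma2*, *Psma3* and *Psma6* lay between, at −0.66, −0.68 and −0.54 in CN. At D10 all 7 genes were already lower than at D5, by 0.32 to 0.57 in CN.

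The 6 constitutive beta genes were all lower at D28 without overlap in both diets (29% of all probe sets in CN, 30.1% in LP). Their medians were −0.56 in CN and −0.57 in LP. The noncatalytic *Psmb4* (beta7) averaged 12.50 ± 0.02 in D5-CN and 11.84 ± 0.06 in D28-CN, a difference of −0.66, and in LP the difference was −0.65. *Psmb1* (beta6) differed by −0.58 and −0.56, *Psmb2* (beta4) by −0.52 and −0.57, and *Psmb3* (beta3) by −0.39 and −0.39. *Psmb5* differed by −0.60 ± 0.04 (1.52-fold) and −0.65 ± 0.03, and *Psmb7* by −0.54 ± 0.07 and −0.45 ± 0.08.

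Of the 17 genes of the 19S particle, 14 were lower at D28 without overlap in CN (29% of all probe sets) and 15 in LP (30.1%). The differences ran from −1.28 to 0.05 in CN. The 6 ATPases that unfold the substrate, *Psmc1* to *Psmc6*, were all lower in both diets, by 0.30 (*Psmc4*) to 0.84 (*Psmc6*) in CN. The other 4 differed by −0.37 (*Psmc1*), −0.47 (*Psmc2*), −0.31 (*Psmc3*) and −0.36 (*Psmc5*). *Psmc6* measured 9.89, 9.70, 10.16, 9.90 and 9.90 on the D28-CN arrays, and its 2 further probe sets differed by −1.04 and −1.01. *Psmd1* and *Psmd2*, the scaffolds of the base, differed by −0.61 and −0.43 in CN, and *Psmd4*, a ubiquitin receptor, by −0.22.

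*Psmd14* encodes the deubiquitinase of the lid, which removes ubiquitin chains before the substrate is threaded into the core, and it had the largest difference among the members that were lower in both diets. It measured 10.56, 10.63, 10.74, 10.77 and 10.63 on the D5-CN arrays, 10.26, 9.75, 9.85, 10.08 and 10.23 on the D10-CN arrays and 9.37, 9.16, 9.57, 9.47 and 9.33 on the D28-CN arrays. In LP it measured 10.52, 10.59, 10.60, 10.74 and 10.51 at D5, 10.25, 10.31, 10.05, 9.74 and 10.16 at D10 and 9.45, 9.41, 9.03, 9.30 and 9.24 at D28. All D28 arrays lay below all D10 arrays, and 2 D10-CN arrays and 1 D10-LP array lay below 9.9. The difference from D5 to D28 was −1.28 ± 0.08 in CN (2.43-fold) and −1.30 ± 0.09 in LP (2.47-fold), and its 2 further probe sets gave −1.08 and −1.07 in CN.

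The lid genes *Psmd11* and *Psmd3* had D28 means near those at D5. *Psmd11* averaged 10.72 ± 0.09, 10.56 ± 0.07 and 10.73 ± 0.05 in CN, and *Psmd3* averaged 9.03 ± 0.08, 8.78 ± 0.03 and 9.08 ± 0.12. Both were lowest at D10 and overlapped between D5 and D28 in both diets. The remaining lid genes *Psmd6* (−0.59 in CN), *Psmd8* (−0.63), *Psmd12* (−0.58) and *Psmd13* (−0.44) were lower at D28 without overlap in both diets, and *Psmd7* was lower by 0.21 in CN with overlap.

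The helpers of assembly were mixed. Of the core chaperones, *Psmg3* was lower at D28 by 0.64 ± 0.03 in CN and 0.65 ± 0.07 in LP and *Psmg1* by 0.58 and 0.57, both without overlap, while *Psmg2* differed by −0.27 and −0.24 and *Psmg4* by −0.19 and −0.20, the latter with overlap. Of the chaperones of the ATPase ring, *Psmd5* was lower by 0.56 and 0.50 without overlap and *Psmd9* differed by −0.31 with overlap in CN and −0.42 without it in LP, whereas *Psmd10*, known as gankyrin, differed by 0.07 ± 0.06 in CN and 0.20 ± 0.05 in LP. *Psmd10* measured 9.58, 9.48, 9.54, 9.55 and 9.55 on the D5-LP arrays and 9.63, 9.71, 9.88, 9.81 and 9.64 on the D28-LP arrays. The D28-LP values all lay above the D5-LP values, and in CN the ages overlapped.

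Among the activators, *Psme1* and *Psme2* encode the partners of the interferon-inducible 11S cap and differed from each other. *Psme1* averaged 11.59 ± 0.02, 11.51 ± 0.06 and 11.48 ± 0.11 in CN and 11.59 ± 0.03, 11.50 ± 0.06 and 11.52 ± 0.11 in LP, and its D5 and D28 arrays overlapped in both diets. *Psme2* averaged 10.70 ± 0.06, 10.50 ± 0.11 and 10.26 ± 0.04 in CN and 10.66 ± 0.07, 10.52 ± 0.07 and 10.29 ± 0.06 in LP, lower at D28 without overlap. On the same arrays *Psme1* gained 0.33 ± 0.05 (SE) on *Psme2* from D5 to D28 in CN and 0.29 ± 0.04 in LP, without overlap of the ages. *Psme4*, the PA200 cap, differed by −0.73 ± 0.04 and −0.71 ± 0.04 without overlap. A further probe set of *Psme4* gave −0.68 in CN and −0.70 in LP, and another gave only −0.12 and −0.21. The inhibitor *Psmf1* differed by −0.22 and −0.27, the latter with overlap. A second probe set of *Psme1* gave 0.16 in CN and 0.32 in LP, the opposite sign. Centring each array on its median turned the *Psme1* difference in LP to 0.01, and the mean of its probe sets gave 0.03 in CN and 0.13 in LP.

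The 14 further probe sets of 9 members pointed the same way as the one used in 11 cases in CN from D5 to D28. The 3 that did not were 1 each of *Psmb5*, *Psmd11* and *Psme1*, with differences of 0.10, −0.07 and 0.16. The 2 genes that only share the symbol, *Psmc3ip* and *Psme3ip1*, differed by −0.17, with overlap, and −0.37, without it.

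Of 23 genes for partners of the proteasome, 11 were lower in D28-CN than in D5-CN without overlap (29% of all probe sets) and 3 higher (20.7%), with a median of −0.22. The share that was higher is below that of all probe sets. The proteasome-bound deubiquitinases Usp14 and Uchl5 were lower by 0.81 and 0.77, the shuttle factor Rad23b by 0.69 and the assembly factor Pomp by 0.31. In LP, 14 were lower (30.1%) and 4 higher (21.3%). The 3 higher genes in CN were Nfe2l1 (0.94), which encodes the transcription factor Nrf1 of proteasome genes, Ddi2 (0.65), the protease that activates Nrf1, and the ubiquitin receptor gene Adrm1 (0.56). Of 19 proliferation genes, all were lower in D28-CN than in D5-CN without overlap (29% of all probe sets), with a median of −1.81, and Bub1b (−3.38), Bub1 (−2.60) and Mcm6 (−2.56) differed most. Within CN, 18 were lower from D5 to D10 (19.4%) and 14 from D10 to D28 (19.5%). The mean of this list was 9.38 to 9.80 per D5-CN array, 8.57 to 8.94 per D10-CN array and 7.51 to 8.13 per D28-CN array. Its part in the lower proteasome values was not tested.

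**Figure D3:**
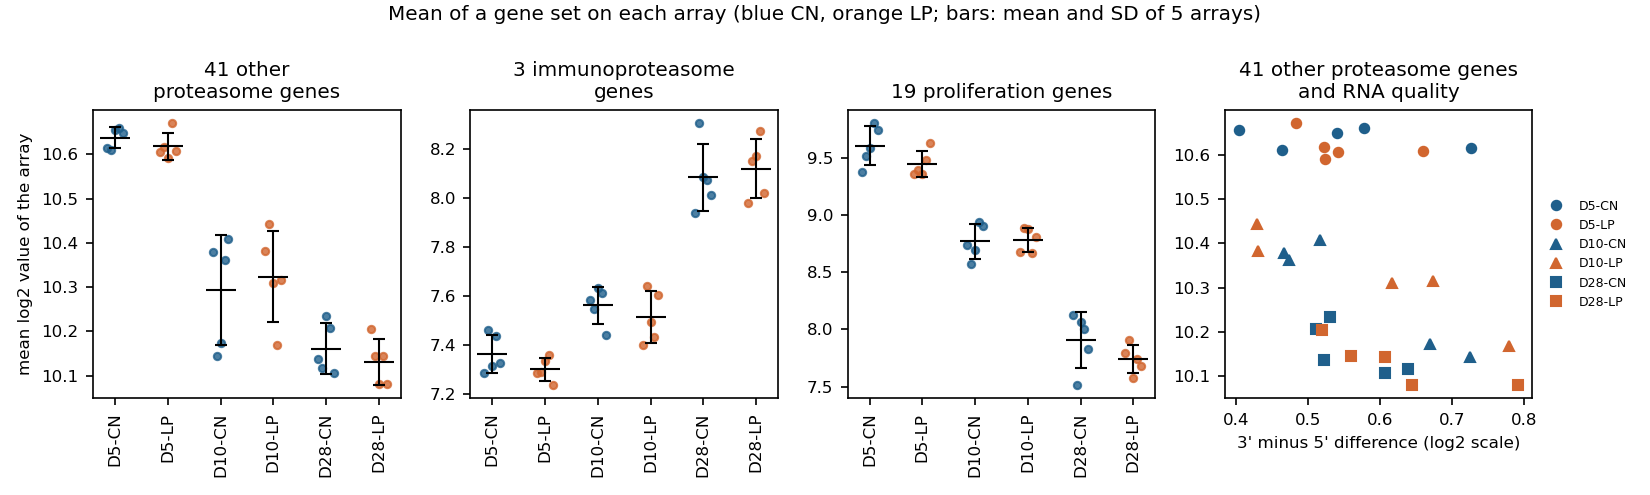
Mean log2 value of a gene set on each array (vertical axes) in the 6 groups, for the 41 proteasome genes outside the immunoproteasome, the 3 immunoproteasome genes and 19 proliferation genes (first 3 panels; points are arrays, bars mean and SD), and the first of these against the 3′ minus 5′ difference of each array (last panel). At D10 the 2 lowest CN arrays and the lowest LP array had the largest 3′ minus 5′ differences of their groups.

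RNA quality moved with the members at D10 and D28. The difference between the 3′ and 5′ probe sets of the beta-actin and GAPDH controls, which grows as RNA breaks down, was 0.47, 0.73, 0.67, 0.47 and 0.52 on the D10-CN arrays, and the mean of the 41 proteasome genes outside the immunoproteasome was 10.38, 10.14, 10.17, 10.36 and 10.41 on the same arrays. On the D10-LP arrays the difference was 0.43, 0.43, 0.62, 0.78 and 0.67 and the mean 10.38, 10.44, 10.31, 10.17 and 10.32. In both groups the array with the largest 3′ minus 5′ difference had the lowest proteasome mean. The part of RNA quality in the lower values was not tested, and the medians were only computed again with arrays left out. In D28-CN the 2 arrays with the largest 3′ minus 5′ differences, 0.64 and 0.61, had the 2 lowest means, 10.12 and 10.11. In D28-LP the 2 largest differences, 0.79 and 0.64, went with the 2 lowest means, both 10.08. At D5 the means lay between 10.59 and 10.67 with 3′ minus 5′ differences of 0.40 to 0.73. With the arrays above a 3′ minus 5′ difference of 0.6 left out, the median difference between D10 and D5 was −0.24 in CN and −0.19 in LP, and that between D28 and D5 was −0.43 and −0.42. In LP this kept only replicates 1 and 2 at D10 and at D28. The median SD of the members within a group was 0.13 in D10-CN and 0.11 in D10-LP, against 0.06 in both D5 groups and 0.09 and 0.08 at D28.

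Maternal diet gave no proteasome gene that passed the test at any age. In limma, with p-values adjusted over all 31042 probe sets, 0 of 46 members had an adjusted p under 0.2 at D5, D10 or D28. The test called 2 of all probe sets at D5 (0.00644%) and 0 at D10 and D28 (0%). At an unadjusted p under 0.05 there was 1 member at D5 (8.19% of all probe sets), 0 at D10 (5.02%) and 0 at D28 (6.09%). Rank products, at a false discovery rate under 0.2, called 0 members at each age, and called 2.13%, 0.722% and 3% of all probe sets at D5, D10 and D28. The arrays of the 2 diets overlapped for all 46 members at each age, as for all probe sets but 1.48%, 1.11% and 0.857%.

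The differences between the diets ran from −0.18 to 0.09 at D5, from −0.10 to 0.12 at D10 and from −0.12 to 0.14 at D28, with a median SE of 0.05, 0.07 and 0.06. The median over the members was −0.02 at D5, with 16 of 46 above 0, 0.04 at D10, with 35 of 46 above 0, and −0.03 at D28, with 12 of 46 above 0, while 49.7%, 48.4% and 43.8% of all probe sets were above 0. The sign of the median was thus not the same at the 3 ages. These counts are described only, with no test over the members. A p above the threshold does not show that the diets acted alike.

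At D5 the smallest p belonged to *Psmc6*, an ATPase of the base. It measured 10.61, 10.68, 10.93, 10.88 and 10.66 on the D5-CN arrays and 10.48, 10.62, 10.52, 10.74 and 10.50 on the D5-LP arrays. The LP values all lay below the CN mean and the groups overlapped. The difference was −0.18 ± 0.08 (limma, adjusted p = 0.588). *Psmb10* followed with −0.10 ± 0.05 (limma, adjusted p = 0.63), with all 5 LP arrays below the CN mean.

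At D10 *Psmd1* differed by 0.12 ± 0.06 (limma, adjusted p = 0.999), with values of 9.12, 8.99, 9.03, 9.17 and 9.16 in CN and 9.20, 9.31, 9.25, 9.13 and 9.20 in LP, all 5 LP arrays above the CN mean. *Psmd3* differed by −0.10 ± 0.05 (limma, adjusted p = 0.999), with all 5 LP arrays below it. At D28 *Psmd10* differed by 0.14 ± 0.07 (limma, adjusted p = 0.77), with values of 9.43, 9.68, 9.62, 9.66 and 9.60 in CN and 9.63, 9.71, 9.88, 9.81 and 9.64 in LP. All 5 LP arrays lay above the CN mean and the groups overlapped. *Psmg3* differed by −0.09 ± 0.05 (limma, adjusted p = 0.77).

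The catalytic subunits differed between the diets by at most 0.10 at every age. At D28, *Psmb8* differed by 0.03 ± 0.09 and *Psmb9* by 0.10 ± 0.10 (limma, adjusted p = 0.919 and 0.81), and *Psmb5* and *Psmb7* by −0.05 ± 0.05 and 0.08 ± 0.09. At D5, *Psmb8* differed by −0.08 ± 0.07 and *Psmb9* by −0.01 ± 0.06. The activators *Psme1*, *Psme2* and *Psme4* differed by 0.04 ± 0.07, 0.04 ± 0.05 and 0.02 ± 0.05 at D28. None of the genes on the MHC class I, interferon, partner, leukocyte or proliferation lists had an adjusted p under 0.2 at any age.

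**Figure D4:**
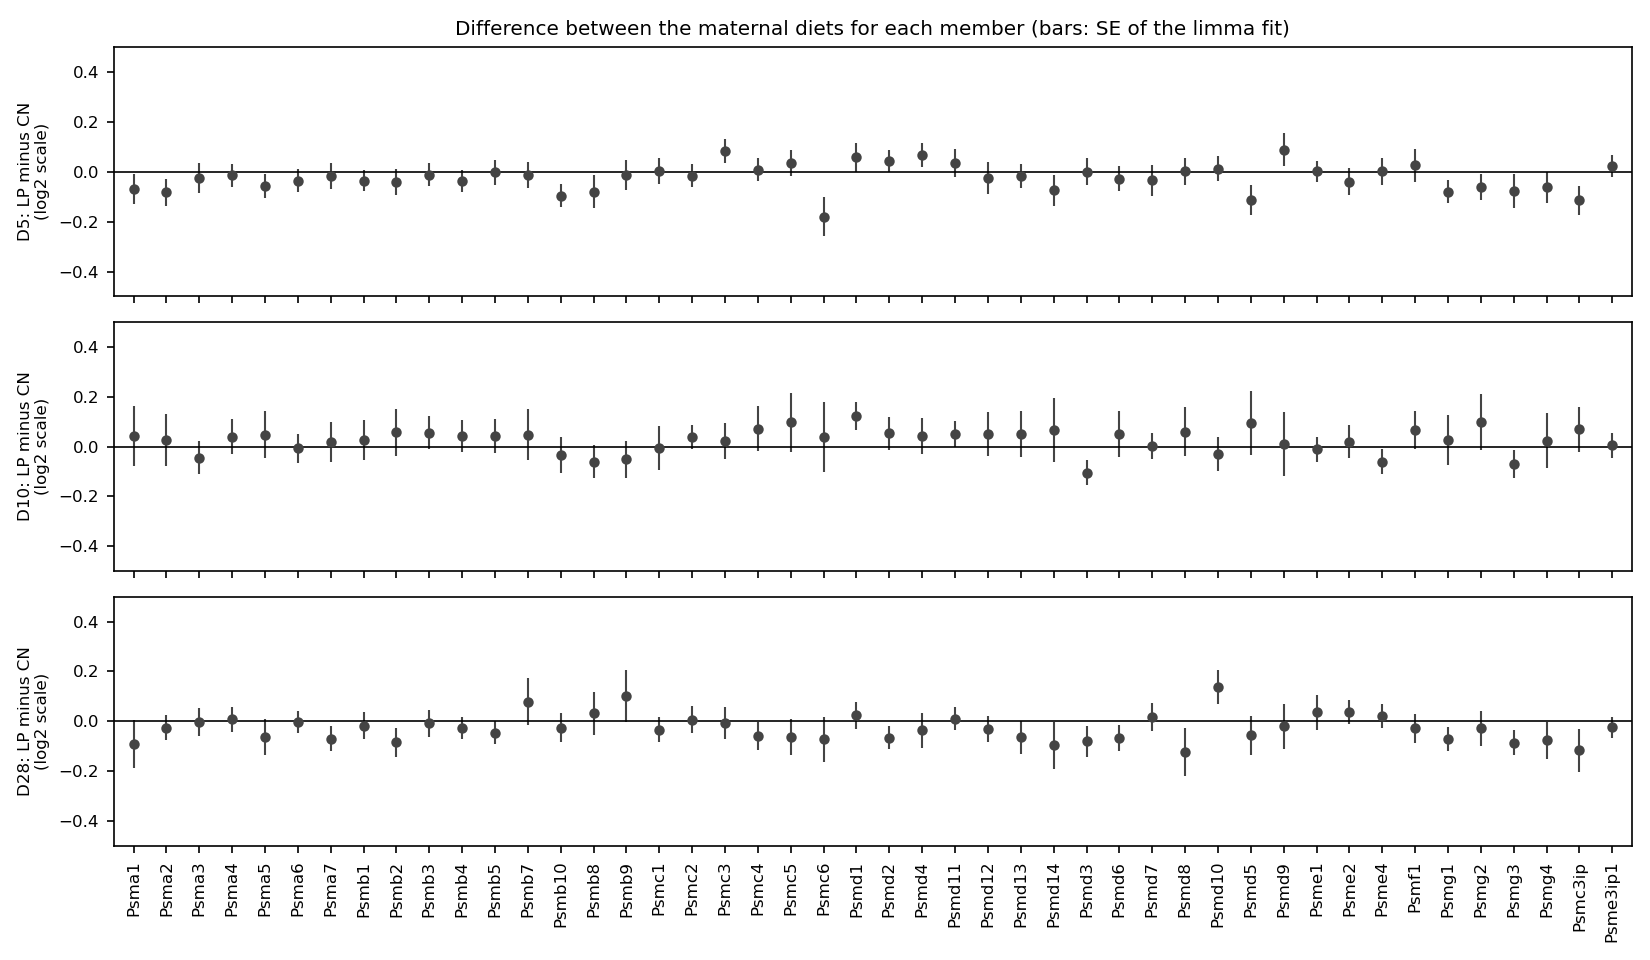
LP minus CN difference (vertical axes, log2 scale) for each of the 46 members (horizontal axis) at D5, D10 and D28 (top to bottom), with bars of 1 SE of the limma fit. All differences lie between −0.18 and 0.14, and none had an adjusted p under 0.2.

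The diet difference of a member did not pass the test of a change between ages either. In the fit of all 30 arrays, 0 of 46 members had an adjusted p under 0.2 for D10 against D5, D28 against D10 or D28 against D5, as did 0% of all probe sets, and 0 members had an unadjusted p under 0.05 (4.64%, 3.7% and 4.35% of all probe sets). The smallest p was that of *Psmd10* for D28 against D10, where the LP minus CN difference changed by 0.17 ± 0.08 (limma, adjusted p = 0.935). *Psmd2*, next, changed by −0.12 ± 0.07 (limma, adjusted p = 0.935). For D10 against D5 the smallest p belonged to *Psmd5*, which changed by 0.21, and *Psmc3ip*, which changed by 0.18, and for D28 against D5 to *Psmd2* and *Psmd10*, at −0.11 and 0.12. For D28 against D5 the changes over the members ran from −0.13 to 0.12. The higher *Psmb8* and *Psmb9* at D28 and the lower core genes were measured in both diets, with no difference between the diets that passed the test.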

How the data were processed

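RNA of the 30 kidney samples was hybridized by the authors to rat GeneChip arrays, and the authors deposited log2 expression values of each array, made per probe set by a method named qFARMS in the tables. To judge from values shared to 8 decimals, the arrays of an age were normalized apart from the other ages. The tests between ages that had been planned in limma were therefore not run, and the ages are described by the difference of means with its SE and by whether 5 and 5 arrays overlap. The 57 control probe sets were left out, which left 31042, of which 20826 carry 1 gene symbol, 436 several and 9780 none.

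Diets were compared within an age in limma 3.58.1 (R 4.3.3), and the change of the diet difference between ages in 1 fit of all 30 arrays, with Benjamini-Hochberg adjustment over 31042 probe sets and a threshold of 0.2. Rank products used 100 permutations, with a separate 1-sided false discovery rate for each direction. The limma tests were 2-sided, and the scripts were tested on simulated data. Given in full were the catalytic subunits and activators and, for each comparison, up to 5 members in each direction with the largest difference among those called, or otherwise the 2 members with the smallest p. Since ages were not tested, members named there were those with the largest difference, and further ones were named by role after their values were seen. The members and gene lists were chosen with earlier results of these data known. Promoter stretches come from the RefSeq table for GRCr8, and a further motif that was searched is not reported here. Further columns of the deposited rank product tables hold the authors' own comparisons and were not used, nor were 30 array columns whose names matched no sample. The alternatives were another normalization, another summary per gene, other filters, fits and thresholds, a replicate block and leaving out each array in turn. The number of arrays limits the precision. The rest was computed in Python 3.11.15 (numpy 2.4.6, scipy 1.17.1, pandas 2.3.3) and drawn with matplotlib 3.10.9.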

Additional observations from a re-analysis of the deposited data

Results flagged for a closer look

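In 2 of the 186 groups of 5 arrays looked at, 1 array stood apart from the others of its group by Dixon's test, and about 1 group in 20 is picked out by chance. *Psma5* measured 11.25 on D5-LP replicate 3 and 11.35 to 11.37 on the other arrays of that group. *Psmb7* measured 10.39 on D28-LP replicate 1 and 10.00 to 10.11 on the others.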

How the results depend on the processing

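No direction of a median over the members was reversed, and 0 members were called for diet or diet by age under any alternative run: quantile normalization of all arrays, each array centred on its median, the dimmest 25% of probe sets left out, the mean of all probe sets of a gene, limma with trend and robust, a replicate block, all 30 arrays in 1 fit, a threshold of 0.05, rank products and, chosen after seeing the data, the 3′ minus 5′ difference as a covariate or the arrays over 0.6 left out. The replicate numbers did not pair the arrays (r of the deviations from −0.70 to 0.65 over 15 pairs, 4 above 0.1), and with the replicate block the difference of *Psmc6* at D5 was −0.18 (limma, adjusted p = 0.698). Quantile normalization moved the member medians to −0.17 (CN) and −0.18 (LP) for D10 minus D5 and to −0.34 and −0.37 for D28 minus D5, and centring moved the latter to −0.36 and −0.37. Without the arrays over 0.6, the median for D10 minus D5 in LP was −0.19, and 34 (CN) and 42 (LP) members did not overlap between D28 and D10, in place of 15 and 21; fewer arrays overlap less by construction. Leaving out 1 array at a time gave 0 to 0 members called for diet and diet by age. Medians then ran from −0.35 to −0.30 (D10 minus D5, CN), −0.15 to −0.09 (D28 minus D10, CN), −0.46 to −0.42 (D28 minus D5, CN), −0.34 to −0.26, −0.20 to −0.16 and −0.50 to −0.43 (LP, in the same order), and members without overlap from 36 to 40, 15 to 17 and 37 to 40 (CN) and 32 to 40, 21 to 29 and 39 to 42 (LP). Of single genes, the D28 minus D5 difference of *Psmb10* in LP also changed sign when 1 array was left out (−0.05 to 0.01). The alternatives planned for the age tests that need a fit (dim filter, variance model, block, arrays in the fit, threshold) were not run, since ages were not tested.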
